A study of Xenopus laevis with 6 samples.

Results

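Desmosomes, hemidesmosomes and the cornified envelope are the structures that give an epidermis its mechanical strength, and 6 Xenopus laevis genes that encode parts of them are described here. The genes were taken by symbol: every probe set whose annotation gave a single symbol among pkp3.L, pkp3.S, dsc3.S, dst.L, evpl.L and ppl.L was kept. This gave 10 of the 32539 probe sets tested and 6 of the 11303 gene symbols that the array measured, with 4 probe sets for ppl.L, 2 for pkp3.S and 1 for each other gene. The suffixes L and S mark the copies of a gene on the long and short chromosomes of the duplicated Xenopus laevis genome.

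Animal caps were examined. An animal cap is the roof of the frog blastula, a sheet of cells that forms epidermis when it is cultured by itself and that can be turned towards mesoderm and endoderm with inducing factors. Embryos received antisense morpholinos (MO), modified oligonucleotides that block the use of a chosen transcript, in the animal part of every blastomere at the 4-cell stage. The 3 injections were 80 ng of Control MO, 80 ng of ERK3 MO3, and ERK3 MO1/2, a mixture with 40 ng of each of its parts MO1 and MO2; ERK3 is an atypical mitogen-activated protein kinase, encoded by mapk6. Caps were cut at stage 9, cultured without additions or with activin and retinoic acid (activin/RA), and collected at stage 15. Each of the 6 combinations of injection and culture was measured once, on 1 Affymetrix array, in 1 experiment. The targeted transcript was not analysed here, since 0 probe sets were annotated as mapk6.

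In a vertebrate epidermis, desmosomes join neighbouring cells by desmosomal cadherins, which bind inside the cell to plakoglobin and plakophilins and, through desmoplakin, to keratin filaments. Hemidesmosomes join the basal cells to the basement membrane in a similar way, through integrins and through the plakin proteins dystonin and plectin. Envoplakin and periplakin are plakins that connect keratin filaments to desmosomes and that, in mammalian skin, are among the first proteins laid down in the cornified envelope, the cross-linked protein shell of the outermost cells. The epidermis of a frog embryo is not cornified, so the genes of that shell are described here in a tissue without it.

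Values are log2 of the deposited signal, so a difference of 1 is a factor of 2. The 6 arrays had median log2 signals of 5.08 to 5.14, and any pair of arrays correlated at 0.943 to 0.993 (Pearson's r across probe sets). The identity of the caps was checked by markers whose summed linear signal is given per array. The 18 epidermis genes summed to 18340 in untreated control caps, 10600 with ERK3 MO1/2 and 12270 with ERK3 MO3. In activin/RA caps they summed to 15070, 11450 and 12020 in the same order. Linear sums follow the brightest genes, such as krt70.S, which read 12.84 in untreated and 12.07 in activin/RA control caps. The median log2 change of the 18 genes between these arrays went the other way, at 0.22. Of those 18 genes, 15 lay above the array median in untreated control caps and 16 in activin/RA control caps. The epithelial adhesion gene epcam.S read 11.80 in untreated control caps. The defining epidermal regulator tp63 was near the bottom of the scale on every array, with tp63.L between 1.65 and 2.10 and tp63.S between 1.79 and 2.99. The 13 mesoderm genes summed to 124.8, 150.2 and 154.3 in the untreated caps and to 2109, 2513 and 1543 in the activin/RA caps. A set of 11 maternal transcripts summed to 2058 in untreated control caps, 4013 with ERK3 MO1/2 and 3697 with ERK3 MO3, and to between 1919 and 2462 in activin/RA caps.

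The members spanned a wide range of signal. In untreated control caps evpl.L, at 7.84, exceeded 83.5% of all probe sets on that array, and pkp3.L, at 6.79, exceeded 71.8%. The brightest ppl.L probe set exceeded 67.4%, dst.L 58.2%, the brighter pkp3.S probe set 56.0% and dsc3.S 42.9%. The faintest ppl.L probe set lay between the percentiles 12.1 and 33.6 on the 6 arrays, and the deposited values carry no call of whether a probe set was detected. Signals of different probe sets depend on their probes, so these percentiles do not rank the genes by abundance.

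**Figure D1:**
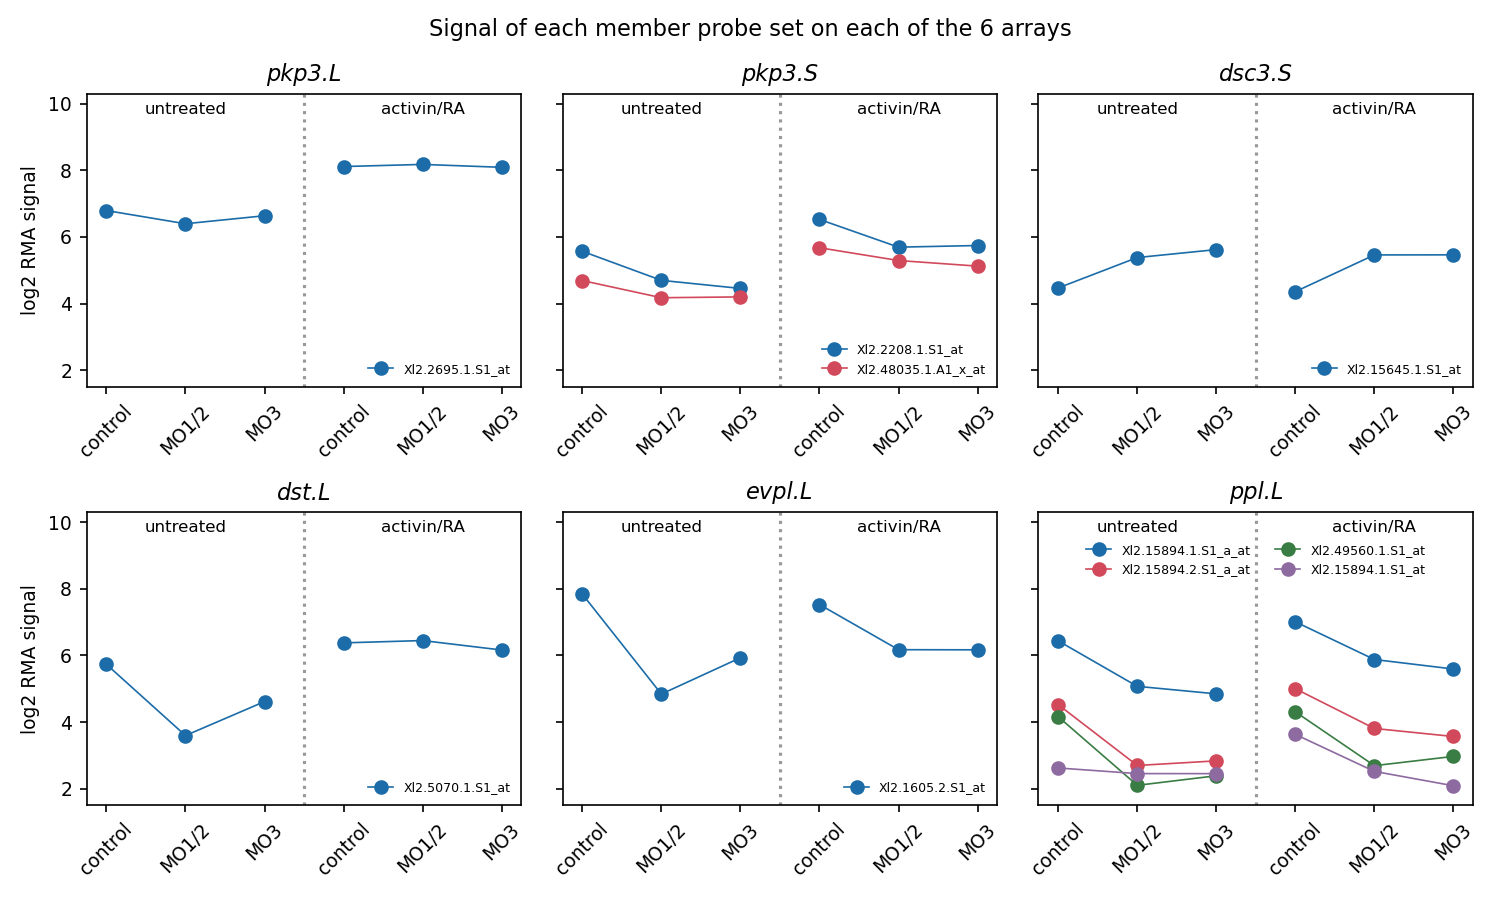
Log2 signal of each of the 10 probe sets on each of the 6 arrays, 1 point per array, in untreated and in activin/RA caps. The evpl.L points fall from 7.84 in the untreated control to 4.84 and 5.93 with the ERK3 morpholinos, while dsc3.S rises from 4.47 to 5.38 and 5.62.

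The first question was whether the ERK3 morpholinos moved these genes in caps left to form epidermis. Of the 10 probe sets, 5 fell, 1 rose and 4 did not pass the test, and those that fell belonged to evpl.L, ppl.L and pkp3.S. Among all 32539 probe sets, 3.56% were called lower and 3.14% higher in the same comparison. The members were chosen with earlier results of these data known. The share over all probe sets is therefore a background only, here and below, and an excess over it is no test. The median change of the 10, of which 4 measured ppl.L, was -1.24 on the log2 scale, against 0.01 over all probe sets. The test was limma's moderated test with Benjamini-Hochberg adjustment over all probe sets and a threshold of 0.05. It took ERK3 MO1/2 and ERK3 MO3 as repeats of one knockdown and assumed that the single control array varies as they do. Nothing shows that such arrays are independent biological replicates. Each p-value of ERK3 morpholinos against control weighs a change against the spread between the 2 reagents in both cultures. limma draws that spread towards the spread of probe sets of similar signal. The p-value does not cover the spread between repeated experiments.

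Envoplakin, encoded by evpl.L, is one of the plakins of the cornified envelope. Its log2 signal in untreated caps was 7.84 with Control MO, 4.84 with ERK3 MO1/2 and 5.93 with ERK3 MO3. Both ERK3 arrays lay well below the control array, though they also differed from each other. The change was -2.45 ± 0.40 (SE; 95% interval -3.38 to -1.53), a level 5.47-fold lower, with an adjusted p of 0.0223 by limma. It passed the threshold under all 10 alternatives in which it could be computed, with changes from -3.00 to -1.91.

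Periplakin, encoded by ppl.L, forms filaments together with envoplakin. Its brightest probe set read 6.43 with Control MO, 5.07 after ERK3 MO1/2 and 4.84 after ERK3 MO3. The second read 4.52, 2.70 and 2.83 and the third 4.16, 2.10 and 2.39, in the same order. On all 3 of these probe sets both ERK3 arrays lay below the control array. The changes were -1.48 ± 0.23, -1.75 ± 0.21 and -1.91 ± 0.22 (SE), with adjusted p of 0.0212, 0.0155 and 0.0155 by limma. The third of these is a level 3.77-fold lower, but its signal was dim, at percentiles 11.5 and 18.8 on the untreated ERK3 arrays. With log2 of the signal plus 16 its change shrank to -0.71 and was still called (adjusted p 0.0101 by limma). The faintest probe set read 2.62, 2.45 and 2.45, a difference of -0.17 ± 0.21 (SE; adjusted p 0.698 by limma). It was designed on the same clone as the brightest probe set, and the 2 therefore gave different results for one sequence source. Without the untreated ERK3 MO1/2 array the brightest and the second probe set were no longer called (adjusted p 0.0584 and 0.0515 by limma).

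Dystonin, encoded by dst.L, is a large plakin; in mammals its epithelial form (BPAG1e) ties keratin to hemidesmosomes, and other forms serve nerve and muscle. The probe set does not tell these forms apart here. Its signal was 5.73 with Control MO, 3.59 with ERK3 MO1/2 and 4.61 with ERK3 MO3. Both ERK3 arrays were lower than the control, but they lay 1.02 apart. The difference of -1.63 ± 0.39 (SE; 95% interval -2.55 to -0.71) missed the threshold, with an adjusted p of 0.0541 by limma. Of 10 alternatives 2 brought it past the threshold: leaving out the untreated ERK3 MO3 array (-2.14, adjusted p 0.0132 by limma) and quantile normalisation run again (adjusted p 0.0490 by limma). Without the untreated ERK3 MO1/2 array the difference was -1.12 (adjusted p 0.0997 by limma).

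Plakophilin 3 is a plakophilin of desmosomes that is found in nearly all epithelia of mammals. The brighter pkp3.S probe set read 5.57 with Control MO, 4.69 with ERK3 MO1/2 and 4.45 with ERK3 MO3, so both ERK3 arrays were lower. It fell by 0.99 ± 0.22 on the log2 scale (SE; adjusted p 0.0424 by limma). The dimmer pkp3.S probe set, of a class whose probes can also bind other transcripts, read 4.69, 4.17 and 4.20 and did not pass (-0.50 ± 0.21, adjusted p 0.206 by limma). The other copy, pkp3.L, read 6.79, 6.39 and 6.63, a difference of -0.28 ± 0.19 (SE) with an adjusted p of 0.441 by limma. The copies were not tested against each other, and probes for near-identical copies may share transcripts.

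Desmocollin 3, encoded by dsc3.S, is a desmosomal cadherin and was the member called higher. It read 4.47 with Control MO, 5.38 with ERK3 MO1/2 and 5.62 with ERK3 MO3. Both ERK3 arrays lay above the control array. The change was 1.03 ± 0.22 (SE; 95% interval 0.52 to 1.54), with an adjusted p of 0.0392 by limma. The calls of dsc3.S and of pkp3.S were lost when any 1 of the 4 ERK3 arrays was left out; without the untreated ERK3 MO1/2 array the adjusted p were 0.0887 and 0.0901 by limma.

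By size alone, with no test, 5 of the 10 probe sets were at least 2-fold below the untreated control with both reagents: dst.L, evpl.L and 3 of ppl.L. The share of all probe sets that met this rule was 2.54% for lower levels and 2.05% for higher ones, and no member was at least 2-fold higher with both. The 2 differences of a gene share their control array, so their common direction is not an independent repeat.

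**Figure D2:**
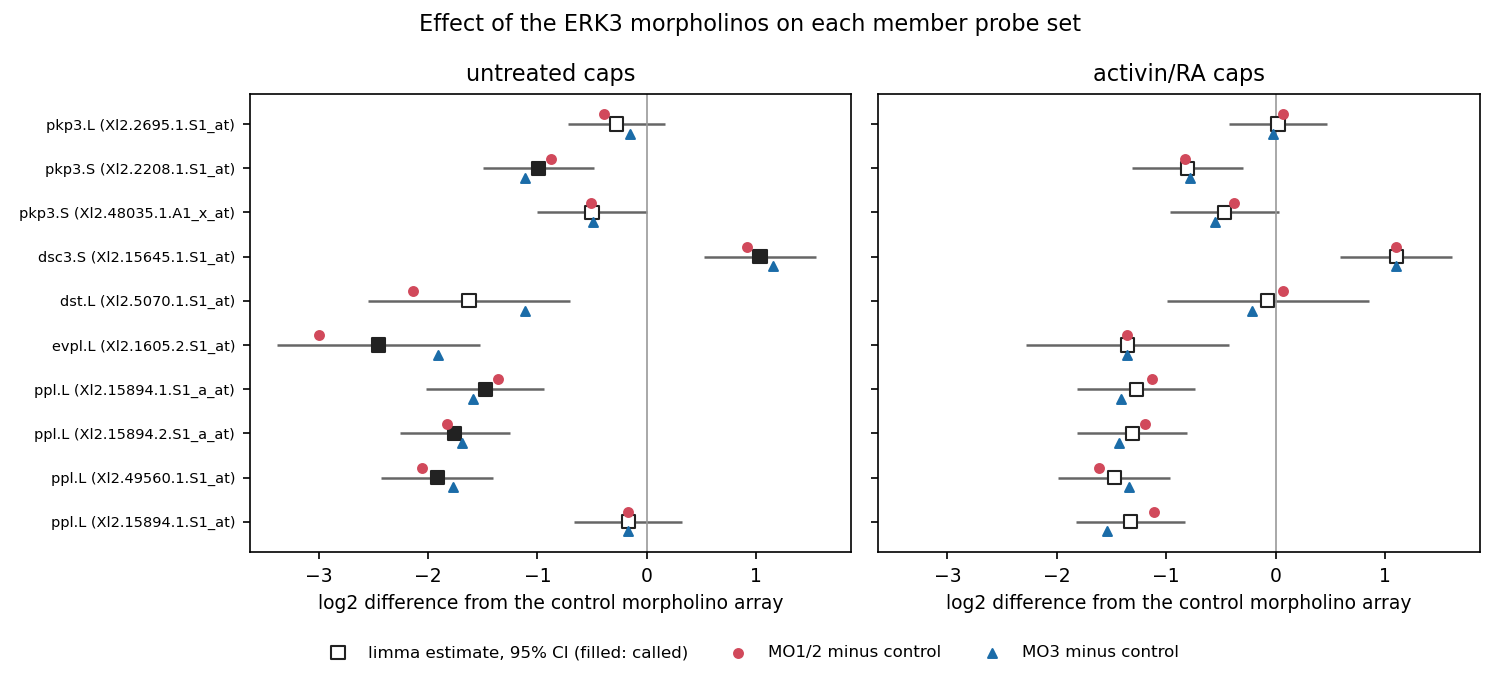
Log2 difference of each ERK3 morpholino array from its culture's control array, per probe set, in untreated (left) and in activin/RA caps (right); circles and triangles are single array differences, squares are limma estimates with 95% intervals, filled where called. In activin/RA caps dst.L sits near 0 (0.07 and -0.21), whereas dsc3.S lies at 1.10 with both reagents.

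Other epidermal genes moved in the same comparison. Of the 18 epidermis genes, 10 fell and none rose, with a median change of -1.23; cdh1.S, which encodes the cadherin of adherens junctions, read 5.55, 2.35 and 3.52 and fell by 2.61 ± 0.43 on the log2 scale (SE; adjusted p 0.0228 by limma). Among ionocyte genes 3 of 4 fell and among genes of goblet and secretory cells 2 of 7 fell and 1 rose. Of 9 genes of multiciliated cells 0 were called, with a median change of -0.04. Their uncalled changes ran from -2.95 ± 0.93 for foxj1.S to 0.56 ± 0.20 for mcidas.S (SE; adjusted p 0.106 and 0.132 by limma). The other copy, foxj1.L, differed by -1.59 ± 0.50 (SE; adjusted p 0.103 by limma). Maternal transcripts were called higher for 7 of 11 genes. Falls were not confined to epidermal lists: 4 of 12 endoderm genes fell, while 0 of 13 mesoderm and 0 of 10 neural genes were called. The part of these shifts in the changes of the 6 genes was not tested. In whole caps, fewer cells of a type and less RNA per cell cannot be told apart.

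The same question was asked of caps treated with activin/RA. None of the 10 probe sets passed the test there, and the smallest adjusted p was 0.0770 by limma. Of the 10, 7 had an unadjusted p under 0.05 by limma, as did 3532 of all 32539 probe sets. Only 0.138% of all probe sets, 45 of 32539, were called in either direction. The median difference of the 10, of which 4 measured ppl.L, was -1.04, against 0.01 over all probe sets. By gene, on the brightest probe set, differences ran from -1.36 for evpl.L to 1.10 for dsc3.S, with pkp3.L at 0.02 and dst.L at -0.07. By size, 5 of the 10 probe sets were at least 2-fold lower with both reagents, namely evpl.L and all 4 ppl.L probe sets, and 1, dsc3.S, was at least 2-fold higher. The shares of all probe sets were 0.904% and 0.157%.

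The evpl.L signal in activin/RA caps was 7.52 with Control MO and 6.17 with both ERK3 MO1/2 and ERK3 MO3. The ERK3 arrays coincided and lay below the control by 1.36 (adjusted p 0.308 by limma; 95% interval of the difference -2.28 to -0.43). The brightest ppl.L probe set read 7.01, 5.88 and 5.59 in the same order, and the faintest read 3.63, 2.52 and 2.09. For all 4 ppl.L probe sets both ERK3 arrays were below the control array, with mean differences of -1.48 to -1.27.

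For dst.L the 3 activin/RA arrays nearly coincided, at 6.37, 6.44 and 6.16. The difference was -0.07 ± 0.39 (SE), with a 95% interval of -0.99 to 0.85, which leaves room for a change of nearly a factor of 2 in either direction. The brighter pkp3.S probe set read 6.52, 5.69 and 5.74, lower on both ERK3 arrays (-0.81 ± 0.22, adjusted p 0.275 by limma). The pkp3.L values were 8.11, 8.17 and 8.09, a mean difference of 0.02 (adjusted p 0.980 by limma). The dsc3.S signal was 4.36 with Control MO and 5.46 on both ERK3 arrays, a difference of 1.10 ± 0.22 (SE; 95% interval 0.59 to 1.61) with an adjusted p of 0.149 by limma.

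Whether the ERK3 effect differed between the cultures was tested as a contrast of its own. No member passed (smallest adjusted p 0.350 by limma), and 0% of all probe sets did, although 3061 probe sets, 2 of them among the 10, had an unadjusted p under 0.05. Among the 10 the largest contrast in size was that of dst.L, whose difference from the control was -1.63 in untreated and -0.07 in activin/RA caps; the contrast was 1.55 ± 0.56 (SE; 95% interval 0.25 to 2.86; adjusted p 0.470 by limma). For evpl.L it was 1.10 ± 0.56 (SE; 95% interval -0.21 to 2.41). The faintest ppl.L probe set went the other way, at -1.16 ± 0.30 (SE; adjusted p 0.350 by limma). For the remaining 7 probe sets the contrast lay between 0.04 and 0.44.

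The reagents were also set against each other. In untreated caps evpl.L differed from the control by -3.00 with ERK3 MO1/2 and by -1.91 with ERK3 MO3, and dst.L by -2.14 and -1.12. Averaged over both cultures, ERK3 MO3 minus ERK3 MO1/2 was 0.54 ± 0.35 for evpl.L (95% interval -0.28 to 1.36) and 0.37 ± 0.45 for dst.L (95% interval -0.68 to 1.42). No member passed this test (smallest adjusted p 0.921 by limma), and 0% of all probe sets did, with 1973 at an unadjusted p under 0.05, none of them members. Its p-value weighs the difference against how much the effect of culture varied over the 3 injections, Control MO included. Any difference in the response to culture between Control MO and the ERK3 morpholinos widens that spread. The lack of calls therefore does not show that the reagents agree.

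The effect of the inducers was taken as activin/RA minus untreated within each injection. The 3 injections, Control MO included, stood in as repeats in this test. Its p-value weighs the mean difference against the spread between injections, moderated by limma as above. Any difference in the response between Control MO and the ERK3 morpholinos is part of that spread. Over the 3 injections 6 of 10 probe sets rose, those of pkp3.L, both of pkp3.S, dst.L and 2 of ppl.L, and none fell. Of all probe sets 9.6% were called higher and 10.9% lower. The median change of the 10, of which 4 measured ppl.L, was 0.74, against -0.01 over all probe sets. Without the morpholino as a block, pkp3.L and the dimmer pkp3.S probe set stayed called, while the brighter pkp3.S probe set, dst.L and ppl.L did not (adjusted p 0.0683 to 0.417 by limma). In the same comparison 12 of 13 mesoderm genes and 11 of 12 endoderm genes rose, and of the 18 epidermis genes 4 rose and 1 fell. The part of a changed mix of cells in the members' changes was not tested.

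Plakophilin 3 had the smallest adjusted p among the members. The pkp3.L signal was higher with activin/RA by 1.32 with Control MO, 1.78 with ERK3 MO1/2 and 1.45 with ERK3 MO3. All 3 activin/RA arrays, at 8.09 to 8.17, lay above all 3 untreated ones, at 6.39 to 6.79. The share of all probe sets with such a separation was not computed, so it is a description only, here and below. The mean change was 1.52 ± 0.14 (SE; 95% interval 1.19 to 1.84), with an adjusted p of 0.000711 by limma, and it was called under all 11 alternatives. The pkp3.S probe sets rose by 1.08 ± 0.16 and 1.01 ± 0.15 (SE; adjusted p 0.00461 and 0.00563 by limma). The second of these, the dimmer one, was not called without the untreated or without the activin/RA array of ERK3 MO1/2 (adjusted p 0.0584 and 0.0586 by limma).

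The dst.L signal differed more between injections, with gains of 0.64 with Control MO, 2.85 after ERK3 MO1/2 and 1.55 after ERK3 MO3. The lowest activin/RA array, at 6.16, was above the highest untreated array, at 5.73. The mean rise was 1.68 ± 0.37 (SE; adjusted p 0.0197 by limma). Without the untreated or without the activin/RA array of ERK3 MO1/2 it was 1.10 and no longer called (adjusted p 0.0775 and 0.0807 by limma).

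Of the cornified envelope plakins, ppl.L was called on 2 of its 4 probe sets and evpl.L was not. The brightest ppl.L probe set rose by 0.71 ± 0.15 and the second by 0.77 ± 0.17 (SE; adjusted p 0.0164 and 0.0216 by limma), and neither stayed called when any 1 of the 4 ERK3 arrays was left out. The third differed by 0.44 and the faintest by 0.24, and neither passed. For evpl.L the injections disagreed, at -0.31 with Control MO, 1.33 with ERK3 MO1/2 and 0.24 with ERK3 MO3, and the mean of 0.42 ± 0.29 (SE) was not called (adjusted p 0.352 by limma). Without the untreated or without the activin/RA control array the mean was 0.78 and passed the threshold. It then rested on the 4 ERK3 arrays alone, paired by injection. The same difference, taken below without that pairing as the contrast in ERK3 caps, did not pass (adjusted p 0.133 by limma). Without the untreated or without the activin/RA array of ERK3 MO1/2 the mean was -0.036. The desmocollin gene dsc3.S was close to level, at -0.11, 0.08 and -0.16, with a mean of -0.06 ± 0.15 (SE; 95% interval -0.42 to 0.30).

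**Figure D3:**
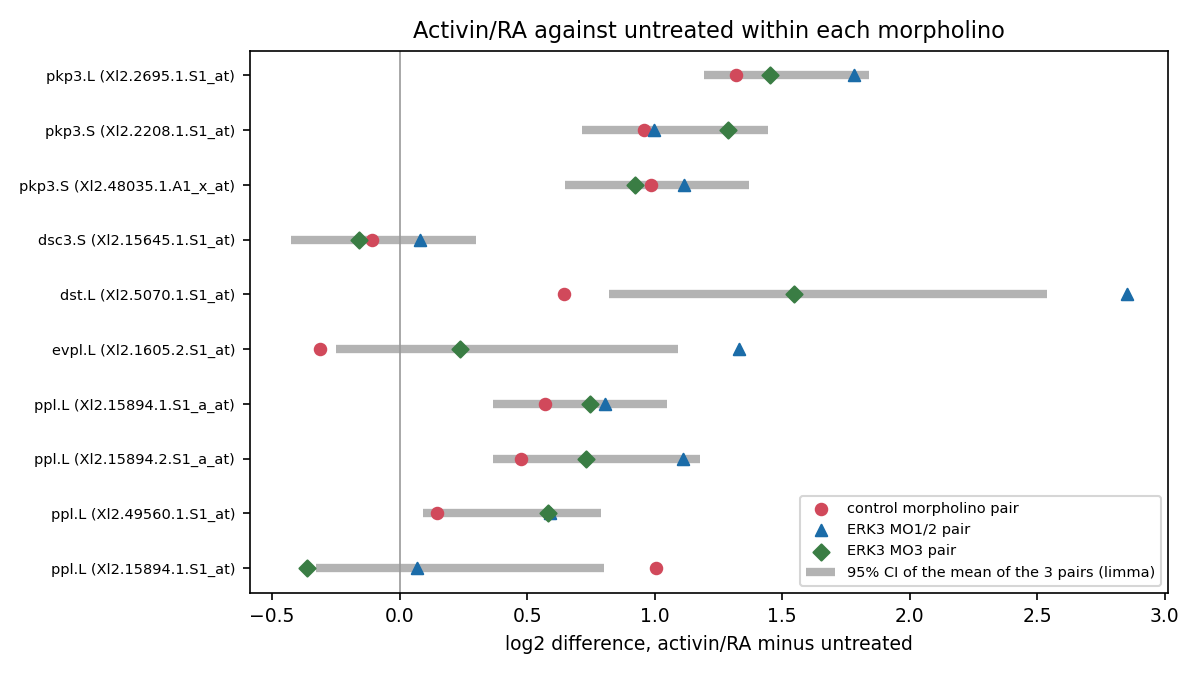
Log2 difference of the activin/RA array from the untreated array of the same injection, 1 point per injection and probe set; grey bars are 95% intervals of the mean of the 3 injections from limma. The pkp3.L points lie between 1.32 and 1.78, while those of dst.L spread from 0.64 to 2.85 and those of evpl.L from -0.31 to 1.33.

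Taken separately, control caps gave 1 called probe set of 10, pkp3.L (1.32 ± 0.22, SE; adjusted p 0.0226 by limma), against 2.04% of all probe sets called higher and 1.56% lower. This contrast sets 1 array against 1, and its spread comes from the ERK3 arrays. In ERK3 caps, with 2 arrays against 2, 6 of 10 rose, against 9.92% called higher and 11.1% lower among all probe sets. They were the probe sets that rose over the 3 injections, with dst.L at 2.20 ± 0.32 (SE; adjusted p 0.00449 by limma) and pkp3.L at 1.62 (adjusted p 0.000819 by limma). The ppl.L calls in ERK3 caps did not hold in every fit with 1 array left out, and such fits have fewer arrays to estimate the spread. The brightest ppl.L probe set lost its call when any 1 of the 4 ERK3 arrays was left out. Its change was 0.77 with all arrays and ran from 0.63 to 0.92 with 1 left out, so the loss was not always a smaller change. The second lost it only without the untreated or without the activin/RA array of ERK3 MO1/2. The evpl.L difference in ERK3 caps was 0.78 ± 0.32 (SE; adjusted p 0.133 by limma), and it rested on single arrays. Without the untreated ERK3 MO3 array it was 1.33 and was called (adjusted p 0.00811 by limma), and without the untreated ERK3 MO1/2 array it was 0.24 (adjusted p 0.481 by limma). The ERK3 and the activin/RA comparisons use the same arrays: the low untreated ERK3 values of dst.L, evpl.L, ppl.L and pkp3.S enter both. The brightest and the second ppl.L probe set and the brighter pkp3.S probe set were called in both. Their fall in untreated caps and their rise in ERK3 caps are therefore not separate results.

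Other genes of these structures were read from lists of gene symbols. The lists held 13 symbols for desmosomes, 10 for hemidesmosomes and 14 for the cornified envelope, those of the members included. Apart from the members, 4, 2 and 1 of these were annotated to a probe set as its single symbol, in 9 gene copies altogether. Integrin beta 4 was not analysed here. In untreated caps none of the 9 passed the test of the ERK3 morpholinos; their differences lay between -0.60 and 0.30 with a median of -0.52, and the smallest adjusted p was 0.0549 by limma. Desmoplakin, the linker of desmosomes to keratin, differed by -0.54 for dsp.L and -0.52 for dsp.S (adjusted p 0.193 and 0.200 by limma).

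Plakoglobin, which desmosomes share with adherens junctions, came closest. The jup.L signal was 10.31 with Control MO, 9.69 with ERK3 MO1/2 and 9.83 with ERK3 MO3, a difference of -0.55 ± 0.13 (SE; adjusted p 0.0549 by limma). The jup.S signal was 9.76, 9.11 and 9.22 (-0.60 ± 0.15, SE; adjusted p 0.0586 by limma). Both ERK3 arrays were lower than the control for both copies. The jup.L difference passed without the untreated ERK3 MO3 array (-0.62, adjusted p 0.0422 by limma) and among probe sets above the median alone (adjusted p 0.0481 by limma). The hemidesmosomal integrin gene itga6.L differed by -0.53 (adjusted p 0.201 by limma) at a low signal of 2.23 to 2.98.

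In activin/RA caps the ERK3 differences of the 9 genes lay between -0.27 and 0.32, with a median of -0.07, and none passed (smallest adjusted p 0.568 by limma). With activin/RA against untreated, 2 of the 9 rose over the 3 injections. These were alox12b.S, a lipoxygenase gene of the epidermal lipid barrier in mammals, by 1.54 ± 0.12 (SE; adjusted p 0.000354 by limma), and pkp2.L, which encodes a plakophilin of simple epithelia and heart, by 0.44 ± 0.10 (SE; adjusted p 0.0254 by limma). The pkp2.L call was lost without the morpholino block (adjusted p 0.0589 by limma) and without any 1 of the 4 ERK3 arrays (adjusted p 0.119 to 0.186 by limma). The alox12b.S signal was 7.79, 8.16 and 8.03 in untreated caps and 9.32, 9.50 and 9.78 in activin/RA caps, with no overlap. In control caps by themselves alox12b.S was called, and in ERK3 caps alox12b.S, pkp2.L and jup.L, the last by 0.63 (adjusted p 0.00872 by limma). In ERK3 caps pkp2.L was no longer called without any 1 of the 4 ERK3 arrays (adjusted p 0.0575 to 0.192 by limma) or without the intensity trend (adjusted p 0.0556 by limma), and jup.L without the activin/RA array of ERK3 MO3 (adjusted p 0.0820 by limma).

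**Figure D4:**
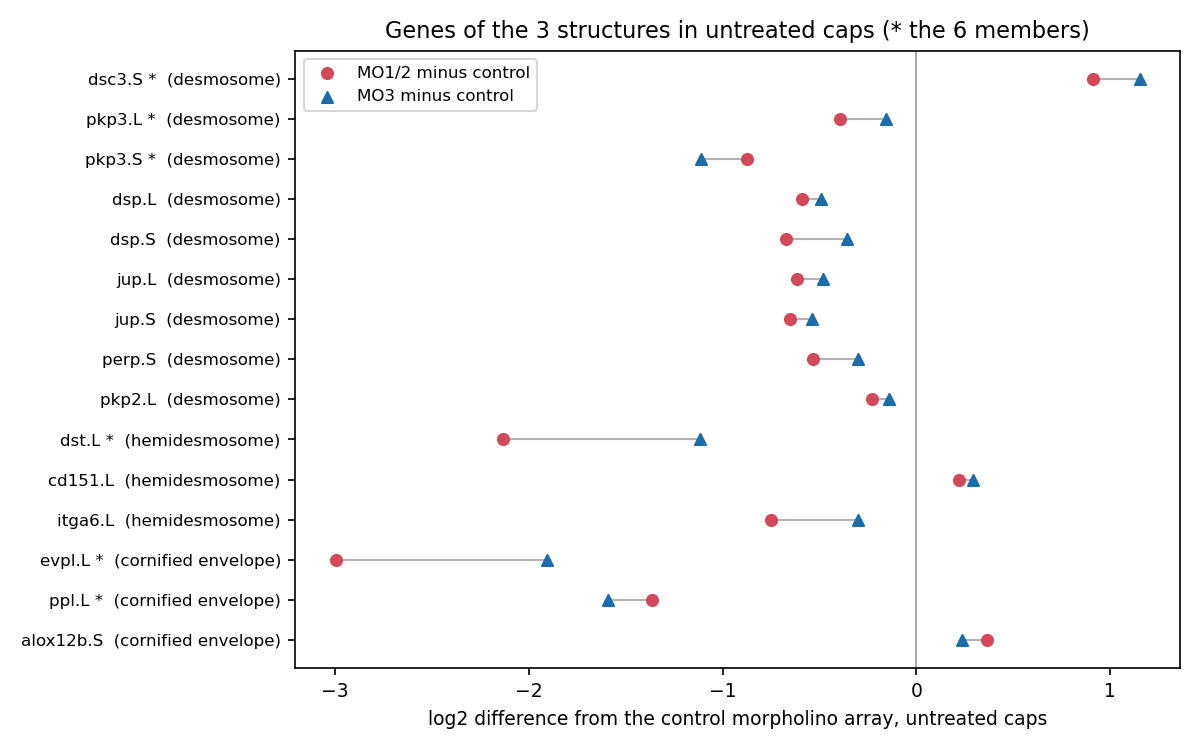
Log2 difference from the control array in untreated caps, with ERK3 MO1/2 (circles) and ERK3 MO3 (triangles), for the brightest probe set of each of the 6 members (starred) and of the 9 other measured genes of the 3 structures. The evpl.L points lie at -3.00 and -1.91 and those of ppl.L at -1.36 and -1.59, while jup.S lies at -0.65 and -0.54.

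The members were compared with each other and with the rest of the array by their pattern over the 6 arrays, as a description; the arrays are 6 points in which culture and injection are shared. The 2 pkp3.S probe sets followed each other (r 0.958), and pkp3.L followed them less closely (r 0.815 and 0.934). Pairs of ppl.L probe sets had r of 0.67 to 0.989. The genes nearest to evpl.L were pdlim4.L (r 0.996), elapor2.L (r 0.996) and top2a.L (r 0.995). Those nearest to dst.L were ventx2.1.L (r 0.996), efnb2.S (r 0.993) and gcnt2.2.S (r 0.991). For pkp3.L they were akap12.L, atraid.S and atf4-iii (r 0.996 to 0.997), and for pkp3.S lef1.S, rpl18.L and eif5.S (r 0.992 to 0.994). The patterns of ppl.L and dsc3.S had less close neighbours: prelid1.S, dgat1.L and gnb3.L for ppl.L (r 0.978 to 0.979) and rpn2.S, cct4.S and mrtfa.S for dsc3.S (r 0.974 to 0.983). These neighbours were picked as the 3 highest r among 2525 or 2526 candidate genes for each member. A high r does not mean changes of equal size. In untreated caps evpl.L read 7.84 with Control MO, 4.84 with ERK3 MO1/2 and 5.93 with ERK3 MO3, where pdlim4.L read 8.41, 6.89 and 7.45.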

How the data were processed

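RNA from 6 animal cap samples was hybridised to the Xenopus laevis Genome 2.0 array from 250 ng of total RNA. Per the labels, images were read with GeneChip Operating Software 1.4 and the authors normalised probe set intensity by the robust multiarray average (RMA) in Expression Console. The deposited intensity values were linear (2.13 to 18347). The design had assumed log2 values, so log2 was taken, with no pseudocount. The 96 control probe sets were left out, and 32539 were tested. Of these, 15495 had 1 symbol in the platform annotation, 279 several and 16765 none; 15384 matched the RefSeq gene table.

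limma 3.58.1 in R 4.3.3 (eBayes with an intensity trend, Benjamini-Hochberg over all probe sets, threshold 0.05) was used in 2 fits, each with 2 residual degrees of freedom. One held culture and morpholino as terms and gave the mean activin/RA effect and ERK3 MO3 against ERK3 MO1/2. The other held 4 means, of culture by control or ERK3 morpholino. All probe sets of the 6 genes were reported. For other genes, and for the patterns over arrays, the brightest probe set stood for the gene. Of each list up to 4 called genes were to be named, and dsp, jup, itgb4, itga6, tp63 and cdh1 whatever they did. Patterns were compared over genes that spanned at least 1 on the log2 scale. The members and lists were chosen with earlier results of these data known. The number of arrays limits the precision. Alternatives were a fit without the trend, only brighter probe sets, log2 of the signal plus 16, quantile normalisation run again, no morpholino block, arrays of 1 culture, another fold rule, and each array left out.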

Additional observations from a re-analysis of the deposited data

How the results depend on the processing

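Member probe sets' differences kept their direction and side of the threshold in 455 comparisons with an alternative, fell short of it in 36, newly passed in 11 and changed sign in 11. For the other named genes the numbers were 122, 11, 2 and 1. Only a difference called in the main fit can fall short. The 455 and the 122 also hold differences that were never called, so they do not measure how well the calls held. Of 5 member probe sets lower with ERK3 morpholinos in untreated caps, 3 were called among probe sets above the median. The rest of the 5, dim probe sets of ppl.L, were not tested there. The number was 4 with log2 of the signal plus 16 and 4 with the 3 untreated arrays alone. It was 6 after quantile normalisation and 2 to 5 with 1 array left out. The 1 higher became 0 with log2 of the signal plus 16, 0 with the 3 untreated arrays alone, and 0 to 1 with 1 array left out. With the signal plus 16, which compresses low signals, 3 probe sets of ppl.L were called lower in activin/RA caps (0 under the other settings), and 2 member probe sets rather than 1 rose with activin/RA in control caps. The 6 probe sets that rose over the 3 injections became 2 with no morpholino block, and 2 to 8 with 1 array left out. At 1.5-fold with both reagents, 6 member probe sets were lower and 1 higher in untreated caps (6.71% and 6.94% of all probe sets), and 6 lower and 1 higher in activin/RA caps (3.13% and 1.43%). With the signal plus 16, the 2-fold rule gave 2 lower in untreated caps, and 1 lower and 0 higher in activin/RA caps. The share of all probe sets past the rule under that setting was not computed, so these counts have no background. Signs changed, in differences that were not called, for pkp3.L with ERK3 morpholinos in activin/RA caps (-0.016 after quantile normalisation) and for others with 1 array left out. There that difference ran from -0.023 to 0.064, and dst.L in the same comparison from -0.21 to 0.070. ERK3 MO3 minus MO1/2 ran from -0.51 to 1.25 for dst.L and from -0.14 to 1.23 for evpl.L. The activin/RA effect ran from -0.15 to 0.54 for the faintest ppl.L probe set and from -0.036 to 0.78 for evpl.L. In ERK3 caps it ran from -0.16 to 0.080 for dsc3.S and from -0.36 to 0.067 for the faintest ppl.L probe set, and tp63.L with ERK3 morpholinos in untreated caps from -0.15 to 0.30. The cause of these changes was not tested.

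Over all probe sets, ERK3 morpholinos in untreated caps gave 2180 calls, 322 to 2482 with 1 array left out and 1550 to 2198 otherwise. In activin/RA caps it was 45, then 0 to 45 and 0 to 203. The mean activin/RA effect gave 6668, then 1859 to 10636 and 2860 to 6652; in control caps 1170, then 941 to 1189 and 447 to 1320; in ERK3 caps 6850, then 2919 to 6858 and 4985 to 6821. The difference between cultures gave 0, then 0 to 2 and 0 to 6, and that between reagents 0, then 0 to 778 and 0. A contrast whose control array was left out could not be estimated. The mean activin/RA effect was paired by injection through the morpholino block; the labels give no other pairing. Dim signals, as of the faintest ppl.L probe set, limit what can be seen.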

Other observations

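Relatives of the members were read after their values were seen. Plakophilin 4, an armadillo protein of cell junctions, was close to level over the 6 arrays, at 6.84 to 7.27 for pkp4.L and 5.50 to 5.81 for pkp4.S. Transglutaminase 2, a cross-linking enzyme related to those of the cornified envelope, was faint, at 2.71 to 3.10 for tgm2.L and 2.46 to 2.68 for tgm2.S. None of these 4 gene copies passed the test by limma in any of the comparisons.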
